A study of Homo sapiens with 4 samples.

Results

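The 10 genes described here encode amino acid transporters of the plasma membrane, SLC7A5, SLC3A2, SLC1A5, SLC7A1, SLC38A1, SLC38A2, SLC1A4, SLC7A6, SLC1A3 and SLC6A9. They are a list of named genes that no value cutoff defines, and all 10 were found among the 58735 genes listed for each library. Their mRNA was measured in U251 and U87, established human glioblastoma (GBM) cell lines, each sequenced as a Control without Bru and after 48 h of brusatol (Bru), a plant compound, at the inhibitory concentration the study had set for each line. Brusatol is known to lower the short-lived transcription factor NRF2 and to inhibit protein synthesis. The question for these genes was how their levels in the Bru library differed from those in the Control library of the same line. Both lines are cultures grown in rich medium, so that neither shows transport in a tumor, and mRNA does not measure the transporter protein or its activity.

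Amino acid transporters decide which amino acids a cell can take up and against which gradient. Exchangers such as SLC7A5 bring in large neutral amino acids, leucine among them, in return for glutamine that leaves the cell, and sodium-driven carriers such as SLC38A2 fill the glutamine pool that the exchangers use. SLC7A5 and SLC7A6 are light chains that reach the cell surface only when joined by a disulfide bond to the heavy chain SLC3A2, also called CD98 or 4F2hc. Many of these genes are known targets of ATF4, the transcription factor that is translated when amino acids are scarce or protein folding is disturbed, and glioblastoma cells are known for high SLC7A5 and SLC1A5.

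With 1 library per condition, none of the differences could be set against a spread between replicates, and no p-value was computed. The reads on genes, recovered from the FPKM (fragment counts corrected for gene length and library size), ranged from 17083896 to 21453561 per library. The library size inside the FPKM differed from these reads. It was 20974002 against 21453561 reads in U251 Control and 18533374 against 17847910 in U251 Bru. Intervals given below are 95% exact intervals on the recovered reads, without molecular identifiers. They cover counting error only, and not the choice of library size. Of 7 neural and astroglial markers, 3 reached 1 FPKM in U251 Control, SOX2 at 129, NES at 125 and GFAP at 2.42 FPKM, and S100B, OLIG2, ALDH1L1 and AQP4 did not. In U87 Control only NES did, at 1.46 FPKM, with SOX2 and S100B listed at 0, so that most markers of the astroglial label were absent or near 0 in both lines. Of 5 mesenchymal markers, 4 reached 1 FPKM in U251 Control and 5 in U87 Control. VIM was the highest of them, at 701 FPKM in U251 and 669 FPKM in U87. COL1A1 was at 0.981 FPKM in U251 Control and 21.1 in U87 Control. The summed FPKM of 4 immune markers was at most 0.506 in any library. These are bulk libraries, in which fewer cells of a kind and less RNA per cell cannot be told apart.

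In U251, SLC3A2 stood out from the other transporters. It was 3.23-fold higher with Bru, whereas the other 9 genes were all lower, 2 of them, SLC1A4 and SLC6A9, to 35.9% and 39.6% of Control. Change was measured as the Bru/Control log2 ratio on FPKM + 0.1, and an absolute value above 1, which is a 2-fold change, was taken as the cutoff. All 10 genes had the required mean of at least 1 FPKM over the 4 libraries, as did 12949 genes in all. Past the cutoff, 1 of the 10 was higher in U251, against 3.36% of the 12949 genes, and 2 of the 10 were lower, against 5.44%. The median log2 ratio of the 10 genes was -0.44 in U251, and that of all 12949 genes was -0.03.

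In U87 the changes were smaller. SLC3A2 again had the highest log2 ratio of the 10 genes, 0.60, and SLC1A4 the lowest, -0.77. With a pseudocount of 0.01, and with none, SLC6A9 was the lowest instead. None of the 10 passed the cutoff in either direction, where 1.92% of the 12949 genes were higher and 1.41% lower. The median log2 ratio of the 10 genes was -0.07, near the -0.04 of all genes, with 6 genes lower, SLC7A1 at -0.01 among them, and 4 higher. The absolute log2 ratio was smaller in U87 than in U251 for all 10 transporters, as it was for 71.8% of all genes. For SLC6A9, which had the required mean FPKM only through U251, the U87 value rests on 21 and 11 reads, and its interval reaches past the U251 value. Opposite signs in the lines were found for 3 of the 10, a share of 30%, and for 33.3% of all genes.

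**Figure D1:**
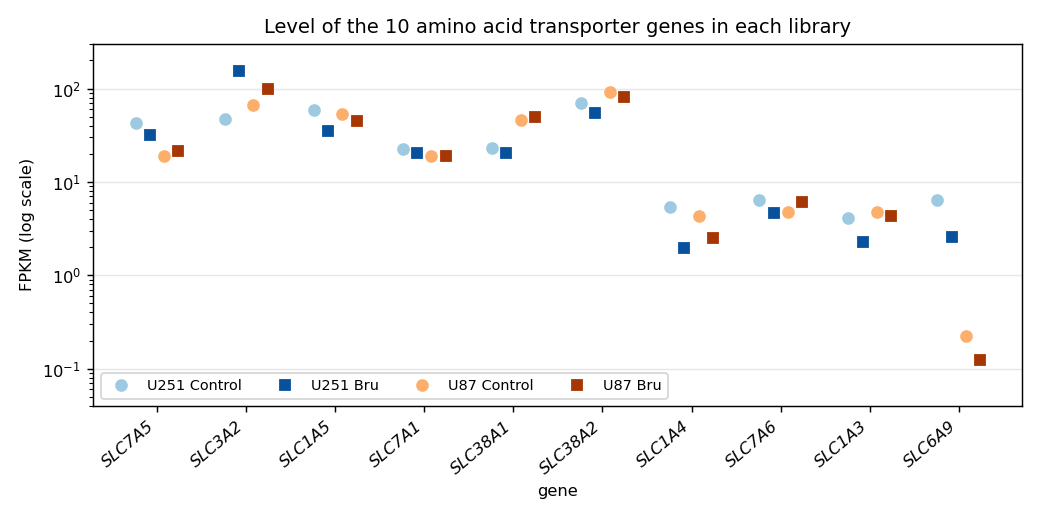
FPKM of the 10 transporter genes on a log scale, with 1 point per library (circles Control, squares Bru, blue U251, orange and brown U87). SLC3A2 is the only gene whose Bru square lies above the Control circle by more than 2-fold, in U251, and SLC6A9 is the gene farthest apart between the lines, with 6.45 FPKM in U251 Control and 0.225 FPKM in U87 Control.

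**Figure D2:**
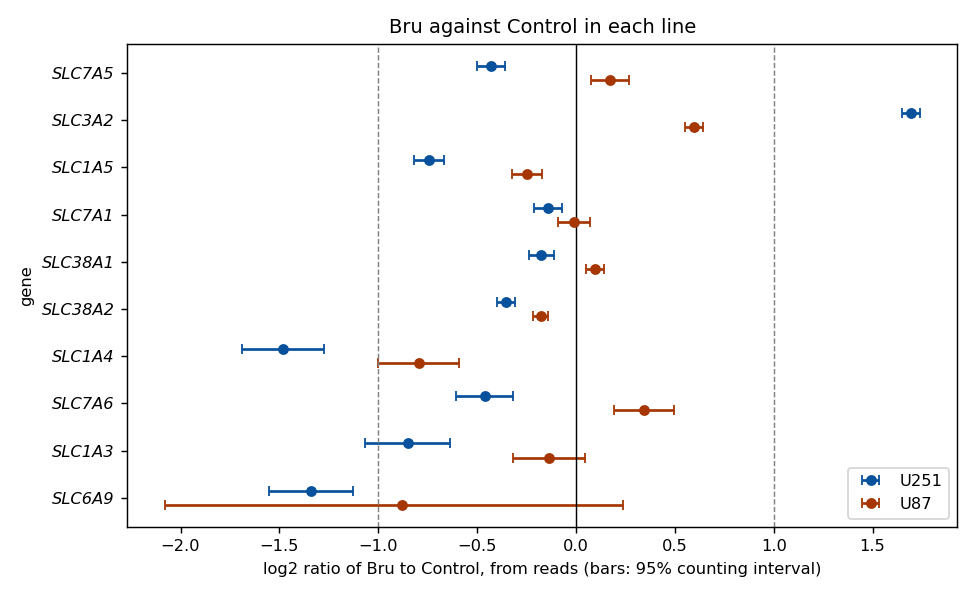
Bru/Control log2 ratio from the recovered reads, without a pseudocount, for each gene in U251 (blue) and U87 (brown), with 95% counting intervals as bars and the cutoff of 1 as dashed lines. In U251 SLC3A2 alone lies right of 0, and the wide bar of SLC6A9 in U87 rests on 21 and 11 reads.

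The reference sequence upstream of these genes is shown for the 3 genes past the cutoff in U251 and for SLC7A5, the main light chain, so that the promoter of the gene that was higher can be read beside those that were lower. The windows are those of RefSeq on GRCh38.p14, 300 bases each, from 250 before to 50 after a transcription start, and are printed 5′ to 3′ on the strand of the gene. Capitals mark matches, on either strand, to TGATGNAA, the composite site that C/EBP and ATF factors share, to CACGTG, the E-box that MYC and MAX are known to bind, or to TGACNNNGC, the core of the antioxidant response element.
SLC3A2, chr11:62881449-62881748, plus strand: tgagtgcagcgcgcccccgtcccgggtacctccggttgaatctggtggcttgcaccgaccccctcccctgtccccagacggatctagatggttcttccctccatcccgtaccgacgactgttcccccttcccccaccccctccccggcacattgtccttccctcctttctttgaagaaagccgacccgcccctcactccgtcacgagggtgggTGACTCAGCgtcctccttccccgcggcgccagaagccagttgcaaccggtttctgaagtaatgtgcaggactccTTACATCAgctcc
SLC1A4, chr2:64989149-64989448, plus strand: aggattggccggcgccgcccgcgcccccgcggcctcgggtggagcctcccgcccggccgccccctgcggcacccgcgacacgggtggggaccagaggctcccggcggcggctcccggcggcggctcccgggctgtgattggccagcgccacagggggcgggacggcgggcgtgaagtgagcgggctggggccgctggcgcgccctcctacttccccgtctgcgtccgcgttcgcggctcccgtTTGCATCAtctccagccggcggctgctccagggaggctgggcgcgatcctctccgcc
SLC6A9, chr1:44031413-44031712, minus strand: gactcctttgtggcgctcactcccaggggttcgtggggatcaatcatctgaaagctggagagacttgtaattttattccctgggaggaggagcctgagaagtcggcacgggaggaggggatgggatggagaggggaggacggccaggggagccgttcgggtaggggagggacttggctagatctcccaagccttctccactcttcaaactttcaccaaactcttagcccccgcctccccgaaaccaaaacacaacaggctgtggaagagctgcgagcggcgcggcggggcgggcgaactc
SLC7A5, chr16:87869458-87869757, minus strand: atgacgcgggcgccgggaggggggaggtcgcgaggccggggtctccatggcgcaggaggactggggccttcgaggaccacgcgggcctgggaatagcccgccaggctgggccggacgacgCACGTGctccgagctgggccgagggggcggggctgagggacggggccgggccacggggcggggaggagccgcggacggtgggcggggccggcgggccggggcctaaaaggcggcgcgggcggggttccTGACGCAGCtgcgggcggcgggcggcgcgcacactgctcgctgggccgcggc

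The promoter of SLC3A2, higher with Bru, and that of SLC1A4, lower with Bru, both held a match to the composite site, TGATGTAA and TGATGCAA, each on the opposite strand of the gene. In SLC3A2 it lay at 38 to 45 bases after the start, and a match to the antioxidant response element lay at 37 to 29 bases before it. The window of SLC6A9 held no match to any of the 3 motifs, and that of SLC7A5 held an E-box and an antioxidant response element. RefSeq lists 18 such windows for the 10 genes, 3 of them for SLC3A2 and 2 for SLC1A4, and the windows of these genes that are not printed held no match. Over all windows, 6 of the 10 genes had the composite site in at least 1, against 4.46% of the 27305 genes in the table. The 10 genes had more windows per gene than the table as a whole, which holds 35116. The E-box was found in 2 of the 10, SLC7A5 and SLC1A5, against 8.77% of the genes, and the antioxidant response element in 6, against 16.1%. None of the matches in these 18 windows overlapped each other. Short letter patterns of this kind are a description of the sequence and not evidence of binding.

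SLC3A2 (chromosome 11, 62856102 to 62888875 on GRCh38, plus strand) encodes the heavy chain that carries several light chains to the membrane. Its FPKM was 47.7 in U251 Control and 154 in U251 Bru, and 65.9 in U87 Control and 99.6 in U87 Bru. Both Bru libraries were above both Control libraries. The log2 ratio was 1.69 in U251, with an interval of 1.65 to 1.74, and only 119 of the 12949 genes had a ratio as high or higher. In U87 it was 0.60, with an interval of 0.55 to 0.64, which is a 1.51-fold higher level, and 569 genes had a ratio as high or higher. The difference of the log2 ratio, U87 minus U251, was -1.09 (interval -1.16 to -1.03), the only one of the 10 past 1 in absolute value. With Bru, SLC3A2 had the highest FPKM of the 10 genes in both lines. Its rank had been 3 in U251 Control and 2 in U87 Control. No other annotated gene overlapped it, and none of its 50-base stretches occurred in a transcript of another gene.

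SLC7A5 (chromosome 16, 87830023 to 87869488, minus strand), also called LAT1, is the light chain that exchanges leucine and other large neutral amino acids for glutamine. It did not follow its heavy chain in U251. Its FPKM was 42.9 in U251 Control and 31.9 in U251 Bru, and 19.1 in U87 Control and 21.5 in U87 Bru. Both U87 libraries were below both U251 libraries, with a log2 ratio of U87 Control to U251 Control of -1.17. Its Bru/Control log2 ratio was -0.43 for U251 (interval -0.50 to -0.36) and 0.17 in U87 (interval 0.07 to 0.27), neither past the cutoff. Of the 50-base stretches of its transcripts, 8.65% also occur in other genes. The antisense gene AC126696.2 shares 222 of them, SMG1P3 and the pseudogene SLC7A5P2 181 each, and the pseudogene SLC7A5P1 32. AC126696.2 was at 0 and 0.310 FPKM in the Control and Bru libraries of U251 and at 0.106 and 0 in those of U87. SMG1P3 was at 0.530 and 0.949 FPKM in U251 and at 0.709 and 0.598 in U87, in the same order. SLC7A5P1 was at 1.86 and 2.81 FPKM in the Control and Bru libraries of U251 and at 2.58 and 2.46 FPKM in those of U87, and SLC7A5P2 was listed at 0 in every library, so that a small part of the SLC7A5 level is uncertain.

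SLC7A6 (chromosome 16, 68264516 to 68301823, plus strand), or y+LAT2, is the light chain that exports arginine in return for glutamine and sodium. Its FPKM was 6.33 in U251 Control and 4.6 in U251 Bru, and 4.81 in U87 Control and 6.09 in U87 Bru. U251 and U87 differed in sign, with a log2 ratio of -0.45 (interval -0.61 to -0.32) in U251 and 0.34 (interval 0.19 to 0.49) in U87. Of its exon bases, 44.4% lie opposite exons of SLC7A6OS, and the library kit named by the study does not mark strand, so reads from the shared bases cannot be told apart. SLC7A6OS itself was higher by a log2 ratio of 0.95 in U251 and by 0.21 in U87, and its part in the SLC7A6 values was not tested.

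Light and heavy chains were next compared within each library by FPKM. These are per length of all annotated exons merged, which is 5178 bases over 23 transcripts for SLC3A2 and 4745 over 3 for SLC7A5. A transcript shorter than this length gives a gene an FPKM that is too low, and which transcripts were expressed was not examined. The order of different genes within a library is therefore less certain than the change of 1 gene between libraries. The summed FPKM of the 6 light chains that pair with SLC3A2 (SLC7A5, SLC7A6, SLC7A7, SLC7A8, SLC7A10 and SLC7A11) was 68.2 in the Control and 52.7 in the Bru library of U251, and 27.8 and 32.4 in those of U87. Divided by SLC3A2, it was 1.43 in U251 Control, and it was 0.342, 0.422 and 0.326 in the other libraries in the same order. U251 Control was therefore the only library in which the summed light chain FPKM exceeded the SLC3A2 FPKM. Whether the mRNA molecules were in the same order was not tested. SLC7A11, the cystine and glutamate exchanger xCT, made up 27.7% of the light chain sum in U251 Control and 13.2% in U87 Control. Its log2 ratios with Bru were -0.24 in U251 and 0.33 in U87, of the same signs as those of SLC7A5 and SLC7A6.

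**Figure D3:**
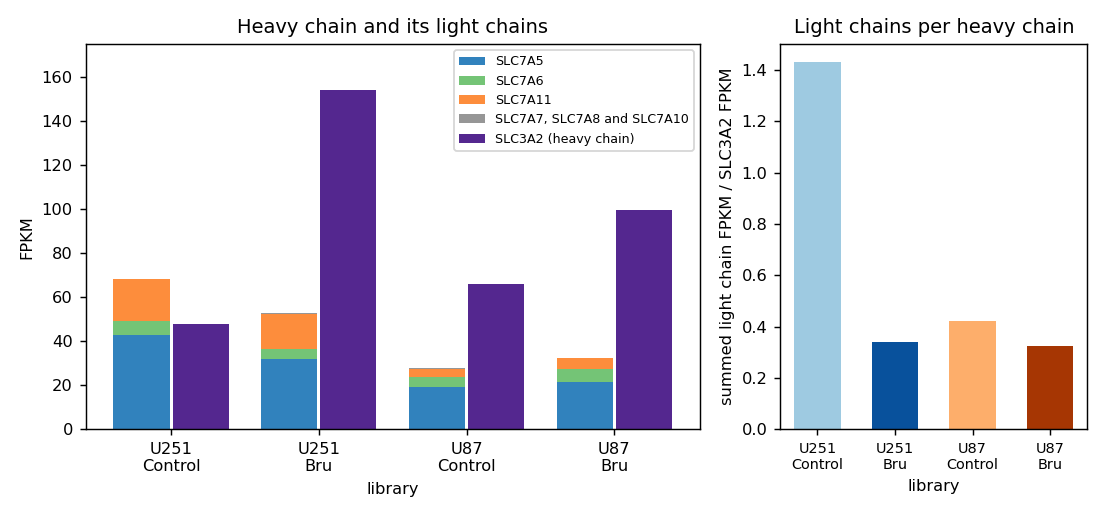
Left, FPKM of the light chain genes, stacked, beside SLC3A2 in each library; right, summed light chain FPKM divided by SLC3A2 FPKM. The quotient is 1.43 in U251 Control and lies between 0.326 and 0.422 in the other 3 libraries.

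The sodium-coupled carriers of glutamine were abundant in both lines. SLC38A2, or SNAT2, imports small neutral amino acids and is induced when these run short. It had the highest FPKM of the 10 genes in both Control libraries. Its FPKM was 70.0 in U251 Control and 54.7 in U251 Bru, and 91.1 in U87 Control and 80.4 in U87 Bru. With Bru it was lower in both lines, by a log2 ratio of -0.35 for U251 (interval -0.40 to -0.31) and of -0.18 for U87 (interval -0.22 to -0.14). SLC38A1, or SNAT1, a carrier of the same family that lies beside it on chromosome 12, had 23.0 FPKM in U251 Control and 20.4 in U251 Bru, and 45.9 in U87 Control and 49.1 in U87 Bru. Both U87 levels were above both U251 levels, by a log2 ratio of 0.99 between the Control libraries. With Bru, the log2 ratio of SLC38A1 was -0.17 in U251 (interval -0.24 to -0.11) and 0.10 in U87 (interval 0.05 to 0.14). The quotient of SLC38A2 to SLC38A1 was thus lower with Bru in both lines, from 3.04 to 2.68 in U251 and from 1.98 to 1.64 in U87.

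The SLC1 family holds neutral exchangers as well as glutamate carriers, and all 3 members listed here were lower with Bru in both lines. SLC1A5, or ASCT2, a sodium-dependent exchanger of glutamine, serine and alanine, had 59.3 FPKM in U251 Control and 35.4 in U251 Bru, and 53.3 in U87 Control and 44.9 in U87 Bru. This gave log2 ratios of -0.74 for U251 (interval -0.82 to -0.67) and of -0.25 for U87 (interval -0.32 to -0.17). An antisense gene lies opposite 23.4% of its exon bases and was at 0.225 to 0.395 FPKM in the 4 libraries.

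SLC1A4, or ASCT1, which exchanges serine, alanine and cysteine, was lower with Bru in both lines. Its FPKM was 5.44 in U251 Control and 1.95 in U251 Bru, and 4.35 in U87 Control and 2.51 in U87 Bru, so that both Bru libraries were below both Control libraries. Its log2 ratio was -1.43 in U251, where the reads alone gave an interval of -1.69 to -1.27, and -0.77 in U87, with an interval of -1.003 to -0.59. Only 281 of the 12949 genes in U251 and 329 in U87 had a ratio as low or lower. SLC1A3, or GLAST, the glutamate carrier of astrocytes, had 4.15 FPKM in U251 Control and 2.30 in U251 Bru, and 4.74 in U87 Control and 4.31 in U87 Bru. Its log2 ratio was -0.82 in U251 (interval -1.07 to -0.64), and in U87 it was -0.14, with an interval of -0.32 to 0.04 that includes 0.

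Of the remaining carriers, SLC7A1, or CAT1, which imports arginine and lysine without a heavy chain, was the steadiest. Its FPKM was 22.6 in U251 Control and 20.5 in U251 Bru, and 19.1 in U87 Control and 18.9 in U87 Bru. This gave a log2 ratio of -0.14 in U251 (interval -0.21 to -0.07), or -0.06 with library sizes from the recovered reads. In U87 it was -0.01, with an interval of -0.09 to 0.07, and its sign turned under 3 other scalings, with values up to 0.05. SLC6A9, or GLYT1, the sodium- and chloride-dependent glycine carrier, differed most between the lines. It had 6.45 FPKM in U251 Control and 2.55 in U251 Bru, and 0.225 in U87 Control and 0.122 in U87 Bru. Between the Control libraries, U87 to U251, its log2 ratio was -4.33, and SLC6A9 and SLC7A5 were the 2 of the 10 genes past the cutoff in this comparison, both lower in U87, against 16% of the 12949 genes that were lower and 14.5% that were higher. With Bru, the log2 ratio of SLC6A9 was -1.30 in U251 (698 and 244 reads, interval -1.55 to -1.13). In U87 it was -0.55 from 21 and 11 reads, with an interval of -2.08 to 0.24, so that no difference could be detected from so few reads. Exons of CCDC24 lie opposite 7.83% of its exon bases, and CCDC24 had a higher FPKM than SLC6A9 in all libraries but U251 Control.

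Added up, the 10 mRNAs came to 288 FPKM in the Control and 329 FPKM in the Bru library of U251, and to 308 and 327 FPKM in those of U87. The sum hid a shift in makeup, since SLC3A2 took 16.6% of it in U251 Control and 46.9% in U251 Bru, and 21.4% and 30.4% in U87. Without SLC3A2, the sum was 240.2 FPKM in U251 Control and 174 in U251 Bru, and 243 and 228 FPKM in U87.

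The genes whose pattern over the 4 libraries was most like that of SLC7A5 were SLC35B3, ARHGEF26, COL4A6, SETD5 and KDM4B. Likeness was the Euclidean distance between the log2 levels after centring, over 4 libraries and 10850 protein-coding genes, and the distance was 0.10 for SLC35B3 and 0.12 for KDM4B. SLC35B3, for instance, was at 11.4 and 7.90 FPKM in the Control and Bru libraries of U251 and at 5.03 and 5.85 FPKM in those of U87.

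Other transporters of amino acids were examined from lists of genes by compartment. Of 33 other plasma membrane transporters, 6 had the required mean FPKM, but SLC6A15 and SLC6A17 had it only through U87, with at most 8 reads in a U251 library, and SLC1A1 only through U251. The minimum was also asked of the 2 libraries of the line itself, a choice made after the data were seen. It was met by 5 genes in each line, and none of them passed the cutoff. Of all genes that met it, 3.21% were higher and 5.77% lower past the cutoff in U251, and 1.80% and 1.34% in U87. A count of 0 in 5 genes is near these shares. In U251 the 5 genes took in SLC7A2, which was not among the 6 and had a log2 ratio of 0.29, the only 1 of the 5 above 0. The medians over the 5 genes of each line were -0.50 (U251) and -0.22 (U87) on the log2 scale. SLC38A10, of the same family as SLC38A2, had log2 ratios of -0.81 and -0.28 in U251 and U87, and SLC6A6, the taurine carrier, of -0.50 and -0.33. SLC1A1, the glutamate and cysteine carrier EAAC1, was at 7.48 FPKM in U251 Control and 4.39 in U251 Bru, and was listed at 0 in both U87 libraries.

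Inside the cell, 8 of 9 lysosomal transporters had the required mean FPKM and none passed the cutoff in either line, with medians of -0.00 in U251 and 0.04 in U87. Of all genes, 3.36% were higher and 5.44% lower past it in U251, and 1.92% and 1.41% in U87. A count of 0 in 8 genes is near these shares. The sialic acid and acidic amino acid carrier SLC17A5 had log2 ratios of -0.84 and -0.45, the histidine and peptide carrier SLC15A4 of -0.65 and -0.26, SLC36A4 of -0.38 and -0.06, and SLC38A7, a glutamine carrier, of 0.38 and 0.09. Of 12 mitochondrial carriers, 10 had the required mean FPKM, and 2 of these were lower past the cutoff in U251 and none in U87, where all genes gave 5.44% and 1.41%. The 2 were SFXN2, of the sideroflexin family, whose log2 ratio was -1.36 (U251) and -0.12 (U87), and SLC25A29, a carrier of basic amino acids, with -1.09 and -0.49 in the same order. SLC25A38, the glycine carrier needed for heme synthesis, had 0.57 and 0.09, and SLC25A15, the ornithine carrier, 0.21 and 0.24.

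Downstream of transport, none of 32 measured genes of the amino acid sensing pathway upstream of mTORC1 passed the cutoff in either line. Of all genes, 3.36% were higher and 5.44% lower past it in U251, and 1.92% and 1.41% in U87. The median log2 ratio of the 32 genes was 0.28 in U251, with 24 of 32 above 0 where 47.2% of all genes were, and -0.00 in U87. The ratio of FLCN, the folliculin that acts on RagC and RagD, was 0.91 in U251 and 0.15 in U87. SESN2, a leucine sensor, had -0.42 and 0.60, CASTOR2 -0.97 and 0.09, and C12orf66, of the KICSTOR complex, 0.70 and 0.32. Among 19 measured enzymes that use the transported amino acids, none passed the cutoff in either line, against the same shares of all genes. The branched-chain enzymes BCAT1 and BCKDHB were at log2 ratios of -0.47 and -0.81 (U251) and of -0.39 and -0.08 (U87), ASS1, which makes argininosuccinate, of -0.43 in U87, with only 44 and 27 reads in U251, and GCLC, the catalytic subunit of the ligase that starts glutathione synthesis, of 0.35 (U251) and 0.37 (U87).

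Of 16 measured genes of the ATF4 arm of the amino acid response, 3 were higher past the cutoff in U251 (DDIT3, PPP1R15A and ATF5, with log2 ratios of 1.91, 1.25 and 1.08) and 1 in U87 (ATF3, with 1.54), against 3.36% and 1.92% of all genes, and none were lower past it. Below 0 were 7 of the 16 in U251, the lowest of them VLDLR, DDIT4, PHGDH and CHAC1 with -0.79, -0.72, -0.69 and -0.60, named after their values were seen. ATF4 itself was at 109 FPKM in U251 Control and 168 in U251 Bru, and at 39.4 in U87 Control and 61.1 in U87 Bru, with a log2 ratio of 0.63 in both lines, and the median over the 16 genes was 0.06 in U251 and 0.11 in U87. None of 9 measured transcription factors known to act on transporter genes passed the cutoff in either line. Of all genes, 3.36% were higher and 5.44% lower past it in U251, and 1.92% and 1.41% in U87. A count of 0 in 9 genes is near these shares. For MYC the ratio was -0.26 (U251) and -0.08 (U87), for HIF1A, the hypoxia factor, -0.42 and -0.03, and for MITF 0.14 and -0.30.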

How the data were processed

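RNA from 4 libraries, 1 per condition, was examined. The values the authors deposited are FPKM of every gene, 1 file per library, from paired-end reads and a kit that does not mark strand. The submitters' processing notes name HISAT2 2.0.5, StringTie 1.3.3b, featureCounts 1.5.0-p3 and DESeq2 1.16.1, and the build hg18, without roles, whereas the coordinates and exon lengths of all 58735 genes were those of GENCODE release 29 on GRCh38. FPKM times gene length gave whole reads for 100% of values within 0.01 reads, and these were used for exact Clopper-Pearson 95% intervals of ratios. Log2 ratios used a pseudocount of 0.1 FPKM and a minimum mean of 1 FPKM, with no test. The 10 genes and the lists were chosen with earlier results of these data known. Of each list, up to 4 genes with the largest mean absolute log2 ratio were named, besides SLC7A11, ATF4 and MYC. Alternatives were other pseudocounts, scalings, FPKM minimums and a lower cutoff. Scripts (Python 3.11.15, SciPy 1.17.1) were tested on simulated data. Protein sequences were not used here.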

Additional observations from a re-analysis of the deposited data

Results flagged for a closer look

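SLC7A5, SLC38A1 and SLC7A6 were lower with Bru in U251 and higher in U87. The log2 ratio in U87 exceeded that in U251 by 0.60 for SLC7A5, 0.27 for SLC38A1 and 0.79 for SLC7A6. With 1 library per condition these differences were not tested.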

How the results depend on the processing

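Within a line no paired analysis was possible, because each comparison sets 1 library against 1 and comes from no test. A fit across lines, taking them as 2 pairs, was not run. In U251, the 3 transporters past the cutoff became 1 with a minimum mean of 5 FPKM, which leaves 7 of the 10 genes, and 5 with a cutoff of 0.5; in U87 that cutoff gave 3 in place of 0. The other plasma membrane transporters past the cutoff in U251 went from 0 to 2 with a pseudocount of 0.01, to 1 with no minimum and to 3 with a cutoff of 0.5. The 2 were SLC6A15, with 3 and 8 reads in the Control and Bru libraries of U251, and SLC6A17, with 0 and 2. The 1 was SLC38A3, with 24 and 0 reads. The median of the 10 genes in U251 was -0.36 with library sizes from the recovered reads or from the 75th percentile and -0.35 with a minimum of 5 FPKM, which gave a median of 0.10 in U87. No alternative turned the direction of a transporter past the cutoff. For single genes, 18 of 120 values moved by at least the distance from the middle of the counting interval to its ends. The same held for 0 of 60 differences between lines. With a minimum mean of 1 FPKM in the 2 libraries of the line, added after seeing the data, the counts past the cutoff were the same and the U87 median, over 9 genes, was -0.01. Depth limits SLC6A9 in U87, whose log2 ratio ranged from -0.83 to -0.13 with the pseudocount and scaling.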

Other observations

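Of the 33 other plasma membrane amino acid transporters, 27 were under the minimum mean FPKM. The genes given here were picked after their values were seen. SLC7A2, the carrier of basic amino acids CAT2, had 290 and 317 reads in the Control and Bru libraries of U251, and 0 and 1 in those of U87. SLC38A3, a glutamine carrier, was at 24 reads for U251 Control and at 0 for U251 Bru, where 0 allows up to 3 reads, and at 0 in both U87 libraries. SLC6A15, a carrier of branched-chain amino acids and proline that had the minimum mean through its U87 level, was found with 9.05 FPKM in U87 Control and 0.016 in U251 Control (3 reads).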
